A study of Mus musculus with 18 samples.

Results

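The levels of 9 genes of sodium, chloride and bicarbonate transport were followed in sorted epithelial cells of the mouse ileum, the final segment of the small intestine: Slc9a2, Slc9a3, Slc26a3, Slc26a6, Cftr, Slc12a2, Atp1b1, Clca4a and Nr3c2. The list was drawn up by function, and its 9 symbols were matched to Ensembl identifiers among the 47729 gene identifiers in the count tables. All 9 passed the filter on low counts, which left 15572 genes. Sorted ileal epithelium was sampled from lactating females on day 7 of lactation (6 libraries), from virgin males (6 libraries) and from virgin females (6 libraries). The virgin mice were matched to the lactating mice by age, and all were fed RM3 diet while breeding and RM1 diet for maintenance and the experiment. No allele, strain or drug is named in the labels, which give neither age in weeks, nor the sorting gate, nor whether each library came from a separate animal, so p-values measure the spread between these libraries.

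The absorptive surface of the ileum takes up salt through pairs of exchangers: sodium-proton exchangers bring sodium into the cell, and anion exchangers bring in chloride for bicarbonate. Crypt cells secrete instead. They load chloride across the basal membrane with a sodium-potassium-chloride cotransporter and release it to the lumen through the CFTR channel, and water follows. Both processes run on the sodium gradient that the sodium pump maintains, and aldosterone, through the mineralocorticoid receptor, raises sodium uptake in salt-conserving epithelia.

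The sodium-proton exchanger genes are Slc9a2 (ENSMUSG00000026062, NHE2), at chr1:40680574-40769273 on the plus strand of GRCm38, and Slc9a3 (ENSMUSG00000036123, NHE3, the main apical sodium entry route of ileal villus cells), at chr13:74121457-74169442 on the plus strand. The chloride-bicarbonate exchanger genes are Slc26a3 (ENSMUSG00000001225, DRA or down-regulated in adenoma) at chr12:31390871-31473917 and Slc26a6 (ENSMUSG00000023259, PAT1) at chr9:108853283-108913049, both on the plus strand. The secretory genes are Cftr (ENSMUSG00000041301), the cyclic AMP-gated chloride and bicarbonate channel, at chr6:18170687-18322768 on the plus strand, and Slc12a2 (ENSMUSG00000024597, NKCC1), the basolateral cotransporter, at chr18:57878678-57946821 on the plus strand. Atp1b1 (ENSMUSG00000026576), the beta 1 subunit that carries the sodium pump to the membrane, lies at chr1:164437109-164458355 on the minus strand. Clca4a (ENSMUSG00000068547), of the CLCA family of modulators of calcium-activated chloride currents, lies at chr3:144952480-144975045 on the minus strand. Nr3c2 (ENSMUSG00000031618), the mineralocorticoid receptor, lies at chr8:76899442-77245012 on the plus strand. Exons of Cftr, Atp1b1, Clca4a and Nr3c2 overlap exons of opposite-strand genes (Gm15592, Nme7, Gm16233 and Gm10649), and Clca4a has a close copy, Clca4b. Whether the counting used strand or shared reads between copies is not given in the sources used here, so the counts of these 4 genes carry that uncertainty.

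The 18 libraries held 34577104 to 49039300 counts each. The epithelial genes Epcam and Cdx2 stood at 1500 to 3170 and 131 to 280 CPM (counts scaled to library size, after TMM scaling), and Fabp6, the ileal bile acid binding protein, at 2160 to 13400 CPM. Summed leukocyte markers (8 genes) ran from 12.9 to 23.7 CPM in lactating females, from 9.39 to 45.0 CPM in virgin males and from 6.32 to 42.2 CPM in virgin females. Most of that was Lyz2, at 3.97 to 43.7 CPM over all libraries, and the defining leukocyte gene Ptprc stayed at or under 0.373 CPM in every library; the part of these cells in the results was not tested. Summed stromal and vessel markers (8 genes) stayed at or under 0.722 CPM. Virgin male 6 and virgin female 2 stood apart in Gm42418, a transcript that overlaps ribosomal RNA, at 29980.0 and 31050.0 CPM, against 1230.0 to 4477 CPM in the other 16 libraries, and values that change without them are given with the other processing alternatives.

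The libraries also differed in the cell cycle score, which is high in the dividing crypt and low on the villus. The score (mean log2 CPM of 35 cell cycle genes, none of them an ion transport gene) averaged 4.36 ± 0.6 in lactating females, 4.74 ± 0.165 in virgin males and 4.28 ± 0.575 in virgin females (SD, n = 6 each). It ran from 3.43 to 5.10 in lactating females, from 4.53 to 4.98 in virgin males and from 3.50 to 5.03 in virgin females. All 6 virgin male libraries thus lay in the upper part of the range that both female groups covered. In bulk RNA of this kind, fewer cells of a type and less RNA per cell cannot be told apart.

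RefSeq promoter windows of GRCm38.p6, from 250 bases before to 50 after the RefSeq start site, were searched for 6 of the 9 genes. None was at hand for Slc9a2 and Clca4a, and the window of Slc12a2 is not reported here. The start that RefSeq uses need not be the outermost start of the GENCODE gene given above. The windows were searched on both strands for AGAACA (a half-site of the mineralocorticoid and glucocorticoid receptors), GGGCGG (the GC box of Sp1-family factors) and TTTATG (the CDX motif of intestinal promoters). Matches are in capitals and are a description of the letters only. Of 32851 promoters of this length, 19% held AGAACA, 35.7% GGGCGG and 11.9% TTTATG, the median GC content was 52.7%, and the median number of CpG pairs was 7. No matches of different motifs overlapped each other, while 3 of the GGGCGG copies of Cftr overlapped one another. The windows below were chosen because Cftr rose and Slc26a6 fell with the cell cycle score described next, Slc26a3 held the only AGAACA match, and Slc9a3 followed neither.
Cftr, chr6:18170437-18170736, plus strand: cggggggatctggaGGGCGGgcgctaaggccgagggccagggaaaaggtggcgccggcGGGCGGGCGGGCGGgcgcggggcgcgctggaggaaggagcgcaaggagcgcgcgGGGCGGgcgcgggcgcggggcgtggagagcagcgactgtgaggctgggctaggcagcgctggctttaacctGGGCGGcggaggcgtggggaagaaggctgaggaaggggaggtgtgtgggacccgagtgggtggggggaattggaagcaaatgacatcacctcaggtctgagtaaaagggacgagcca
Slc26a6, chr9:108853793-108854092, plus strand: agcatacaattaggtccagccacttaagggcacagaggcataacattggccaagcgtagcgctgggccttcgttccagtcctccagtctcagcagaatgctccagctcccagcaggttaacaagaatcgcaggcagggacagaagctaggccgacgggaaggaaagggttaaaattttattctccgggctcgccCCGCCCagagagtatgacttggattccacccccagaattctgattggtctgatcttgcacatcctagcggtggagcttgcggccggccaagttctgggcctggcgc
Slc26a3, chr12:31437969-31438268, plus strand: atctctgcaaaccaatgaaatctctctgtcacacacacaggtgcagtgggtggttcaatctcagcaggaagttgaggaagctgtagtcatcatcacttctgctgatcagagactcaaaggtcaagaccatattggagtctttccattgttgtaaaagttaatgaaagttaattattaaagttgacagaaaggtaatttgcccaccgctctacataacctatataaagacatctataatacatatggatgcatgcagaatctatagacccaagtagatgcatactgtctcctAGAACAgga
Slc9a3, chr13:74121163-74121462, plus strand: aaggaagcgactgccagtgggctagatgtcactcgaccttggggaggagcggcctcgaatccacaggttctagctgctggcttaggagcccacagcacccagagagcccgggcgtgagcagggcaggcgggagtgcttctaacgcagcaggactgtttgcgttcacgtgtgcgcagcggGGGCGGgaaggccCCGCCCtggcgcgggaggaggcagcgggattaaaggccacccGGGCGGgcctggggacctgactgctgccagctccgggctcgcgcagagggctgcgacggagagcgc
The Cftr window was 71.3% GC with 31 CpG pairs and 6 GGGCGG copies, all on the plus strand. The Slc26a6 window was 56.0% GC with 13 CpG pairs and 1 GGGCGG on the minus strand, read above as CCGCCC. The Slc26a3 window was 39.3% GC with 1 CpG pair, fewer than in most promoters (5.43% had fewer), and its AGAACA began 42 bases after the start site. The Slc9a3 window was 68.7% GC with 25 CpG pairs and 3 GGGCGG copies. The windows of Atp1b1 (71.0% GC, 31 CpG pairs) and Nr3c2 (65.7% GC, 17 CpG pairs) held 2 and 3 GGGCGG copies. TTTATG was in none of the 6 windows.

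Levels were compared between genes as CPM per kilobase of exon (CPM/kb), since a longer transcript collects more reads. Over the 18 libraries Atp1b1 stood highest at 391 ± 61.9 CPM/kb, followed by Clca4a at 307 ± 274 CPM/kb (SD, n = 18). The anion exchanger Slc26a6 followed at 63.6 ± 18.6 CPM/kb, then Slc26a3 at 29.8 ± 4.58 CPM/kb and Slc9a2 at 24.7 ± 6.30 CPM/kb. Below them were Cftr at 15.9 ± 3.77 CPM/kb, Slc12a2 at 12.9 ± 5.47 CPM/kb, Slc9a3 at 8.27 ± 3.12 CPM/kb and Nr3c2 at 6.42 ± 1.03 CPM/kb. In this order 6 of the 8 pairs of neighbours differed by no more than the larger of their SDs. The exceptions were Slc26a6 over Slc26a3 (a difference of 33.8 CPM/kb) and Slc9a2 over Cftr (8.78 CPM/kb). In lactating females the first pair stood the other way round, with Clca4a at 493 ± 403 CPM/kb and Atp1b1 at 414 ± 56.1 CPM/kb (SD, n = 6). Slc9a2 stood above Slc9a3, the better known absorptive exchanger, in exon-scaled RNA level.

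The genes also differed in how much they varied from library to library. Clca4a spanned a 24.0-fold range over the 18 libraries, from 154 CPM in virgin male 6 to 3696 CPM in lactating female 1. Slc12a2 spanned a 6.95-fold range and Slc9a3 a 5.82-fold range. Cftr spanned 3.19-fold, Slc26a6 2.70-fold and Slc9a2 2.19-fold, while Nr3c2, Slc26a3 and Atp1b1 spanned 1.96-fold, 1.87-fold and 1.77-fold.

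The ranges of the sodium-proton exchangers overlapped between the 3 groups. Slc9a2 ran from 122 to 232 CPM in lactating females (median 195), from 114 to 184 CPM in virgin males (median 149) and from 119 to 250 CPM in virgin females (median 188). The 3 ranges overlapped widely, and the male libraries sat toward the lower end. Slc9a3 ran from 14.3 to 83.3 CPM in lactating females (median 35.9), from 27.8 to 65.6 CPM in virgin males (median 44.5) and from 35.9 to 69.0 CPM in virgin females (median 53.2). Both the lowest and the highest Slc9a3 value of the series came from lactating females, libraries 5 and 3, so the ranges of the other groups lay inside theirs.

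Among the chloride-bicarbonate exchangers, Slc26a3 ran from 154 to 209 CPM in lactating females (median 179), from 148 to 197 CPM in virgin males (median 184) and from 181 to 276 CPM in virgin females (median 207). All 6 lactating and all 6 male libraries lay below the virgin female mean of 211 CPM, yet the groups overlapped, because virgin females 4 and 6 stood at 181 and 184 CPM. The virgin female mean leaned on virgin female 1 at 276 CPM. Slc26a6 ran from 269.6 to 591 CPM in lactating females (median 394), from 224 to 328 CPM in virgin males (median 266) and from 219 to 493 CPM in virgin females (median 377). Of the 6 lactating libraries 5 lay above the male mean of 272 CPM, and the lowest lactating library lay inside the male range.

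Of the secretory genes, Cftr ran from 81.0 to 174 CPM in lactating females (median 111), from 121 to 155 CPM in virgin males (median 133) and from 54.7 to 139.8 CPM in virgin females (median 113). The males formed the narrowest group, and all 6 lay above the virgin female mean of 112 CPM. Slc12a2 ran from 63.4 to 231 CPM in lactating females (median 103), from 120.5 to 216 CPM in virgin males (median 170.1) and from 33.6 to 234 CPM in virgin females (median 119). Each female group thus held libraries both below and above the whole male range.

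The pump subunit Atp1b1 spanned the narrowest relative range of the 9. It ran from 996 to 1526 CPM in lactating females (median 1279), from 934 to 1224 CPM in virgin males (median 1063) and from 1042 to 1651 CPM in virgin females (median 1227). Clca4a was the most variable: it ran from 401 to 3696 CPM in lactating females (median 1322), from 154 to 1039 CPM in virgin males (median 459.5) and from 315 to 1223 CPM in virgin females (median 868). Lactating females 1, 5 and 6, at 3696, 1712 and 1423 CPM, were above every library of the other groups, while lactating females 2 and 3, at 425 and 401 CPM, were among the low ones. The receptor gene Nr3c2 ran from 32.0 to 42.7 CPM in lactating females (median 39.5), from 34.9 to 43.9 CPM in virgin males (median 42.4) and from 33.5 to 62.9 CPM in virgin females (median 41.6). Its highest value came from virgin female 2, one of the libraries rich in Gm42418.

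**Figure D1:**
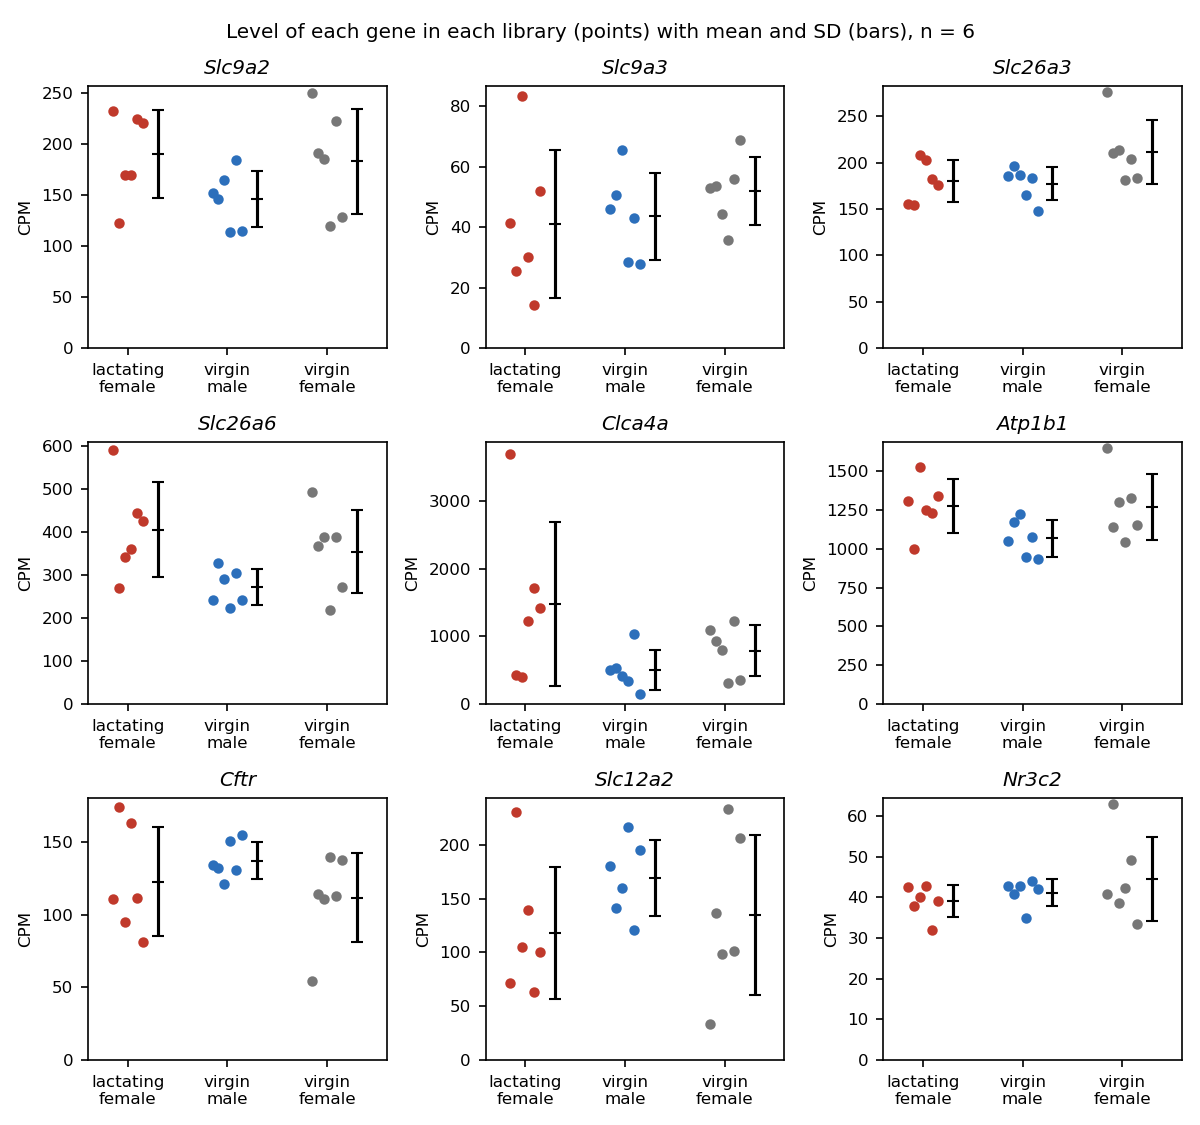
Level of each of the 9 genes in CPM (linear axes from 0) in every library (points) with the mean and SD of each group of 6 (bars). The groups overlap for every gene; Clca4a reaches 3696 CPM in 1 lactating library, and Atp1b1 spans the narrowest relative range, between 934 and 1651 CPM.

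Setting lactating against virgin females asks whether feeding young changes the ion transport genes of the ileal epithelium. None of the 9 genes passed edgeR's quasi-likelihood test at an adjusted p under 0.05, where 0.0578% of all tested genes were called. None had an unadjusted p under 0.05 either (6.44% of all genes did), and DESeq2 and limma voom called 0 of the 9. The median log2 fold change of the 9 genes was 0.0078, against -0.0026 over all 15572 genes. For 0 of the 9 genes did the CPM ranges of these groups lie apart, as they did for 0.289% of all genes.

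For the exchangers the log2 fold changes of lactating against virgin females were 0.06 for Slc9a2 (95% interval -0.35 to 0.46) and -0.34 for Slc9a3 (-0.99 to 0.32). They were -0.23 for Slc26a3 (-0.47 to 0.01) and 0.20 for Slc26a6 (-0.21 to 0.60). Slc26a3 came nearest to the threshold of the 9, with an adjusted p of 0.787, and moved to -0.14 without virgin female 1. The secretory genes had 0.13 for Cftr (-0.29 to 0.56) and -0.19 for Slc12a2 (-0.94 to 0.56). Atp1b1 had the smallest difference at 0.01 (-0.27 to 0.29), so a change of this gene beyond about 1.22-fold in either direction lies outside its interval. Nr3c2 had -0.19 (-0.45 to 0.07), and -0.07 without virgin female 2. Clca4a had the largest difference, 0.91 (SE 0.51, -0.15 to 1.98, adjusted p = 0.834), with 4 of 6 lactating libraries above the virgin female mean. Without lactating female 1 it was 0.40. Its interval reaches from 0.899-fold to 3.95-fold, so it holds both no change and a change of several fold.

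Virgin males set against virgin females give the difference with sex when neither group is lactating. Again 0 of the 9 genes were called by edgeR, beside 0.0835% of all tested genes, and DESeq2 and limma voom also called 0. Slc26a3 alone had an unadjusted p under 0.05, as did 8.32% of all genes. Of the 9 genes 7 had negative log2 fold changes, and their median was -0.25, against -0.01 over all genes.

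Slc26a3 had a log2 fold change of -0.25 in males against virgin females (95% interval -0.49 to -0.01, adjusted p = 0.565), with 0 of 6 male libraries above the virgin female mean, and -0.16 without virgin female 1. Slc26a6 had -0.38 (-0.79 to 0.02), Slc9a2 -0.32 (-0.73 to 0.08), Atp1b1 -0.25 (-0.53 to 0.03) and Slc9a3 -0.25 (-0.91 to 0.40). Clca4a had -0.66 (-1.72 to 0.41) and Nr3c2 -0.11 (-0.37 to 0.14). The secretory genes were on the positive side, Cftr at 0.30 (-0.12 to 0.72) and Slc12a2 at 0.32 (-0.43 to 1.08). The cell cycle score moved with this comparison, at 4.74 in males and 4.28 in virgin females. With the score as a covariate the differences became 0.00 for Slc9a2, -0.04 for Slc26a6, 0.22 for Clca4a, 0.13 for Cftr and -0.07 for Slc12a2, while Slc26a3 stood at -0.18 and Atp1b1 at -0.15.

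Lactating females and virgin males differed in more genes overall: 0.764% of all tested genes were called, and again 0 of the 9 (0 also by DESeq2 and limma voom). For 2 of the 9, Clca4a and Slc26a6, edgeR gave an unadjusted p under 0.05, as did 15.9% of all genes. Clca4a averaged 1480 ± 1209 CPM in lactating females, against 498 ± 298 CPM in virgin males (SD, n = 6 each), a log2 fold change of 1.57 (SE 0.52, 95% interval 0.49 to 2.65, adjusted p = 0.183). Of the 6 lactating libraries 4 lay above the male mean, and without lactating female 1 the value was 1.06. Slc26a6 averaged 406 ± 110.3 CPM in lactating females, against 272 ± 41.6 CPM in virgin males, a log2 fold change of 0.58 (SE 0.19, 0.18 to 0.98, adjusted p = 0.186). The cell cycle score averaged 4.36 in lactating females and 4.74 in virgin males, and with it as a covariate these became 0.60 for Clca4a and 0.29 for Slc26a6.

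The other 7 genes had log2 fold changes between -0.51 and 0.38 in lactating females against virgin males. Slc9a2 had 0.38 (95% interval -0.02 to 0.78) and Atp1b1 0.26 (-0.02 to 0.54), with 5 of 6 lactating libraries above the male mean for both. Slc12a2 had -0.51 (-1.27 to 0.24) and Cftr -0.16 (-0.58 to 0.26). Slc26a3 at 0.02 (-0.22 to 0.26), Slc9a3 at -0.08 (-0.74 to 0.57) and Nr3c2 at -0.08 (-0.34 to 0.18) were close to 0. Both comparisons against virgin females share the same 6 virgin female libraries, and both comparisons of lactating females share the lactating libraries, so the 3 sets of values are not independent. The CPM ranges overlapped in all 27 pairings of a gene with 2 groups. Over all genes, 0.43% had ranges apart for males against virgin females and 1.34% for lactating females against males, so overlap is the common case.

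**Figure D2:**
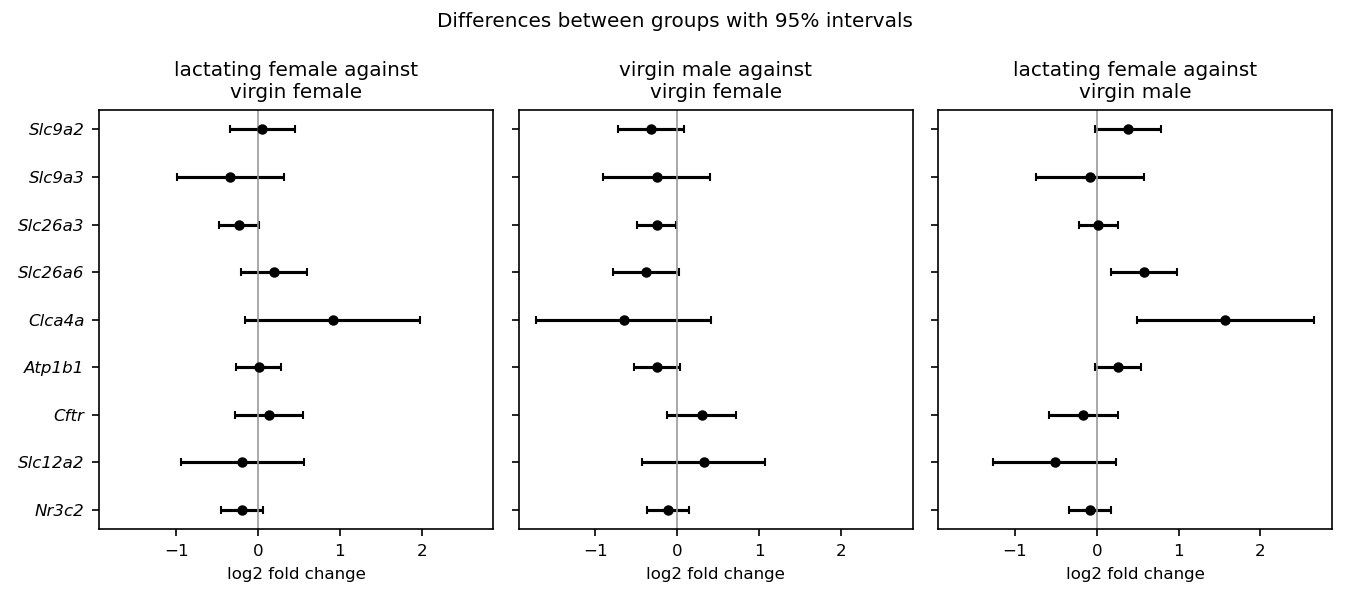
Log2 fold change of each gene between groups, with its 95% interval, for lactating against virgin females, virgin males against virgin females and lactating females against virgin males. The intervals are narrowest for Slc26a3, Nr3c2 and Atp1b1 and widest for Clca4a, and 0 of the 9 genes had an adjusted p under 0.05 in any of the 3 panels.

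Across the 18 libraries, log2 CPM of Slc12a2 and Cftr rose with the cell cycle score, and Slc9a2, Slc26a6, Clca4a and Atp1b1 fell with it, while Slc26a3, Slc9a3 and Nr3c2 had no relation past the threshold. Of the 9 relations 6 had a Benjamini-Hochberg adjusted permutation p under 0.05, both over the 9 genes and over all 15572, where 49.6% of all tested genes passed. The share of the 9 is thus not far from that of all genes, and nothing particular to these genes is read from it. The score and the genes come from the same libraries and share their composition, and the relation describes these libraries.

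Slc26a6 fell most steadily with the score: Pearson's r was -0.903 (permutation p = 1e-05, adjusted 3e-05) and Spearman's rho -0.895 (permutation p = 1e-05). The value 1e-05 is the smallest that 100000 permutations can give. Without the 2 libraries farthest from the median score, lactating female 1 and virgin female 1, r was -0.837. Group by group it was -0.971 in lactating females, -0.856 in virgin males and -0.955 in virgin females. Slc9a2 had r = -0.867 and rho = -0.899 (permutation p = 1e-05 for both, adjusted 3e-05), and r = -0.841 without those 2 libraries. Within groups its r was -0.862 in lactating females, -0.646 in virgin males and -0.958 in virgin females. Clca4a had r = -0.816 (permutation p = 3e-05, adjusted 6.75e-05) and rho = -0.82 (permutation p = 6e-05), and r = -0.785 without those 2 libraries. Its r was -0.961 in lactating females, -0.546 in virgin males and -0.911 in virgin females. Fitted group by group in edgeR, the slopes of these 3 genes on the score were called in lactating females and in virgin females, and 0 of them in virgin males (adjusted p = 0.686 for Slc26a6, 0.719 for Slc9a2 and 0.686 for Clca4a).

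Slc12a2 ran the other way, with r = 0.863 and rho = 0.876 (permutation p = 1e-05 for both, adjusted 3e-05), and r = 0.799 without the 2 farthest libraries. Group by group, r was 0.823 in lactating females, 0.92 in virgin males and 0.891 in virgin females. Cftr rose less tightly, with r = 0.646 (permutation p = 0.0036, adjusted 0.00648) and rho = 0.657 (permutation p = 0.00386), and r = 0.508 without the 2 farthest libraries. Within groups its r was 0.322 in lactating females, 0.431 in virgin males and 0.843 in virgin females, and it was highest in virgin females. Atp1b1 had r = -0.615 (permutation p = 0.00625, adjusted 0.00937) and rho = -0.612 (permutation p = 0.00751), and r = -0.458 without the 2 farthest libraries. Within groups it was -0.262 in lactating females, -0.466 in virgin males and -0.811 in virgin females. With deviations from group means, Cftr (r = 0.586) and Atp1b1 (r = -0.519) no longer passed (adjusted permutation p = 0.0846 for both), nor did they with a villus tip score of turned sign (adjusted permutation p = 0.176 and 0.081). With a stem cell score both passed, at r = 0.725 and -0.752 (adjusted permutation p = 0.000945 and 0.000684), so their relation depended on the score and setting.

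For the remaining genes the relation was weak or differed between groups. Slc26a3 had r = -0.426 (permutation p = 0.0786, adjusted 0.101) and rho = -0.385 (permutation p = 0.113), and -0.542 without the 2 farthest libraries. Its r was 0.245 in lactating females, -0.434 in virgin males and -0.903 in virgin females. Nr3c2 had r = -0.285 (permutation p = 0.254, adjusted 0.286) and rho = -0.309 (permutation p = 0.211). Slc9a3 had r = -0.01 (permutation p = 0.977, adjusted 0.977) and rho = -0.10 (permutation p = 0.705), although its level spanned 5.82-fold. Leaving out the 2 farthest libraries gave r = -0.376 for Nr3c2 and 0.08 for Slc9a3.

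**Figure D3:**
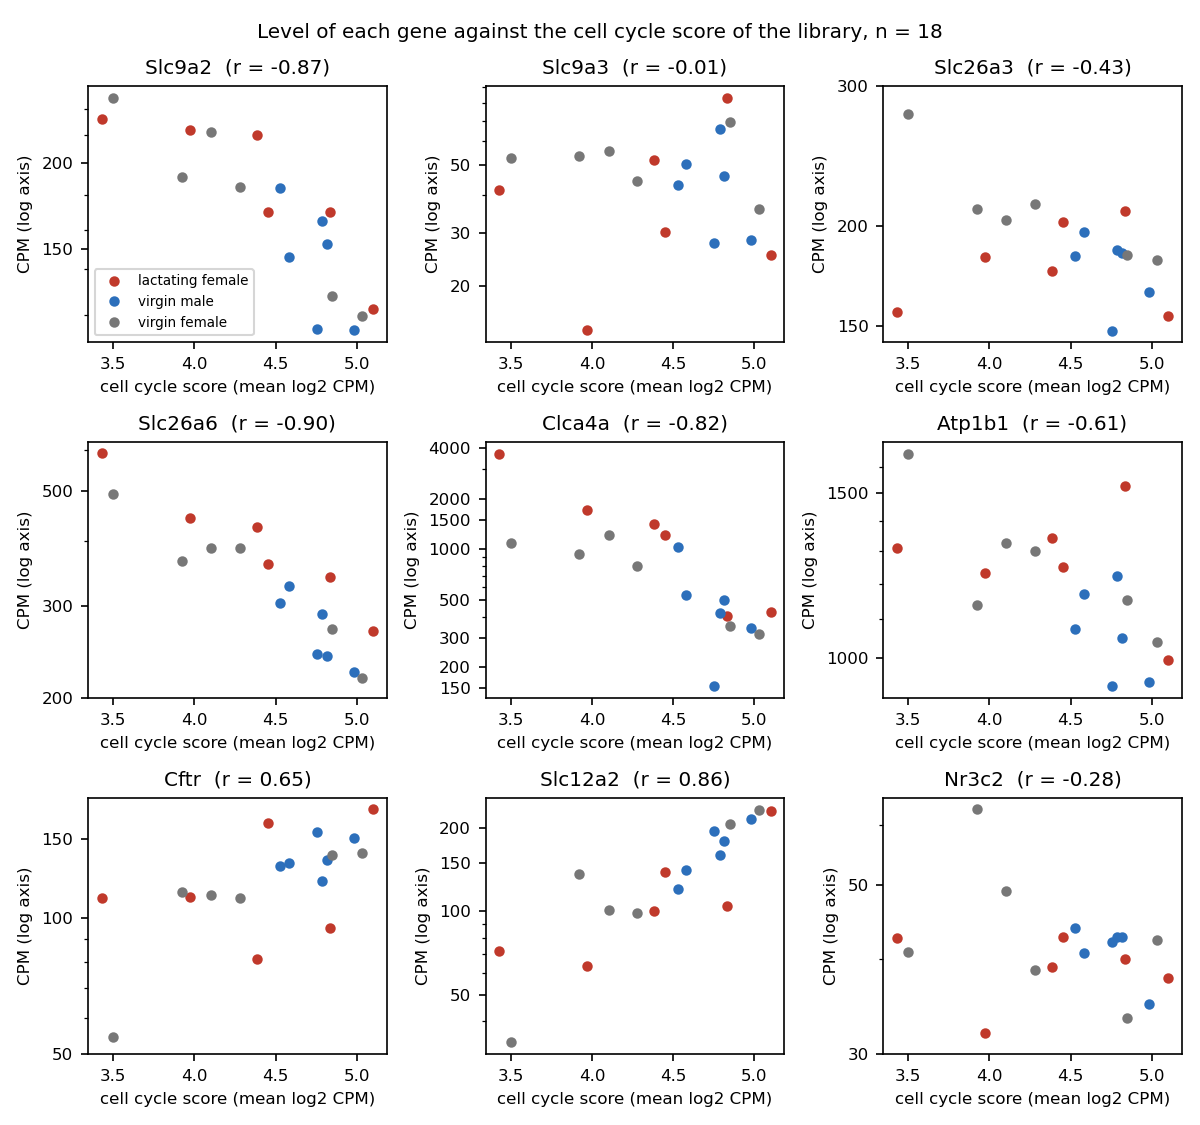
Level of each gene (CPM, log axis) against the cell cycle score of the library (mean log2 CPM of 35 genes), 18 libraries coloured by group, with Pearson's r in each title. Slc12a2 (r = 0.86) and Cftr (0.65) climb to the right, Slc26a6 (-0.90), Slc9a2 (-0.87) and Clca4a (-0.82) descend, and Slc9a3 (-0.01) shows no slope.

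The slopes on the score were also fitted within groups in one edgeR model over all genes, as log2 change per unit of score. Of the 9 genes 5 were called, 2 positive and 3 negative, where 44.1% of all tested genes were called (22% positive and 22.1% negative). The share of the 9 genes is therefore near that of all genes, and the direction and size of each slope carry the description. Slc12a2 had a slope of 1.18 (SE 0.19, adjusted p = 7.69e-05) and Clca4a one of -1.76 (SE 0.27, adjusted p = 5.29e-05). Among the slopes of all genes these stood at percentiles 98.7 and 0.514. Slc26a6 had -0.68 (SE 0.08, adjusted p = 2e-06), Slc9a2 -0.63 (SE 0.10, adjusted p = 0.000104) and Cftr 0.45 (SE 0.15, adjusted p = 0.0244). The call of Cftr was lost without lactating female 2 (0.38, adjusted p = 0.0989), without virgin female 1 (0.29, adjusted p = 0.111) and without virgin female 4 (0.44, adjusted p = 0.056).

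Atp1b1 had a slope of -0.21 (SE 0.10, adjusted p = 0.103), Slc26a3 one of -0.15 (SE 0.10, adjusted p = 0.228), Nr3c2 one of -0.14 (SE 0.11) and Slc9a3 one of 0.11 (SE 0.30). Atp1b1 was called without lactating female 3 (-0.28, adjusted p = 0.02), and Slc26a3 without lactating female 1 (-0.28, adjusted p = 0.026). With a stem cell score in place of the cell cycle score, edgeR called both (-0.29, adjusted p = 0.0138, and -0.22, adjusted p = 0.0475). Whether slopes differed between groups was tested directly. The difference was called for 0 of the 9 genes and for 0% of all genes in each of the 3 comparisons by edgeR. At an unadjusted p under 0.05 there were 734 genes for lactating against virgin females, among them Slc26a3 of the 9, and 186 and 226 genes, none of the 9, for males against virgin females and lactating females against males. Slc26a3 had a slope of 0.09 (SE 0.13) in lactating females and -0.35 (SE 0.12) in virgin females, a difference of 0.44 (SE 0.18, adjusted p = 1 by edgeR). In males, where the score ran only from 4.53 to 4.98, slopes had wide errors, for example -3.05 (SE 1.21) for Clca4a.

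Of the 36 pairs of the 9 genes, 18 had a Benjamini-Hochberg adjusted permutation p under 0.05 over the pairs, 9 with positive and 9 with negative r. The same count was not made over pairs of all genes, 49.6% of which had a called correlation with the cell cycle score. Nothing particular to the 9 genes is therefore read from the number of pairs or from their signs. All 18 were among 7 genes, since Slc9a3 and Nr3c2 had 0 pairs past the threshold. Slc9a2, Slc26a6 and Clca4a formed a positive block, and Cftr and Slc12a2 another. Slc9a2 and Slc26a6 rose and fell together (r = 0.912, adjusted p = 6e-05, rho = 0.944, adjusted p = 9e-05, permutation tests over 18 libraries), with within-group r of 0.928 in lactating females, 0.698 in virgin males and 0.967 in virgin females. Slc26a6 and Clca4a had r = 0.875 (adjusted p = 6e-05) and rho = 0.872 (adjusted p = 0.00012). The secretory pair Cftr and Slc12a2 had r = 0.844 (adjusted p = 0.000315) and rho = 0.86 (adjusted p = 0.00012), with 0.666 in lactating females, 0.689 in virgin males and 0.968 in virgin females.

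Pairs across the blocks had negative r. Slc9a2 and Slc12a2 had r = -0.894 (adjusted p = 6e-05) and rho = -0.936 (adjusted p = 9e-05), and r = -0.896 without the 2 farthest libraries. Atp1b1 also ran against Cftr, with r = -0.832 (adjusted p = 6e-05) and rho = -0.829 (adjusted p = 0.000206), within groups -0.764, -0.944 and -0.924 in lactating females, virgin males and virgin females. Slc26a3 had r = -0.673 with Cftr (adjusted p = 0.00994, rho = -0.486, adjusted p = 0.0779), but -0.287 without the 2 libraries farthest from the median of Slc26a3, virgin male 6 and virgin female 1. Within groups it was -0.193 in lactating females, -0.857 in virgin males and -0.984 in virgin females, the last 2 groups each holding 1 of those libraries. Over the 18 libraries Slc9a3 had r = 0.47 with Atp1b1 and -0.395 with Cftr (adjusted permutation p = 0.0934 and 0.174). Within groups of 6 these r were 0.974 and -0.972 in virgin males, 0.691 and -0.51 in lactating females, and 0.253 and -0.10 in virgin females. The within-group values were picked after they were seen, and their difference between groups was not tested.

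**Figure D4:**
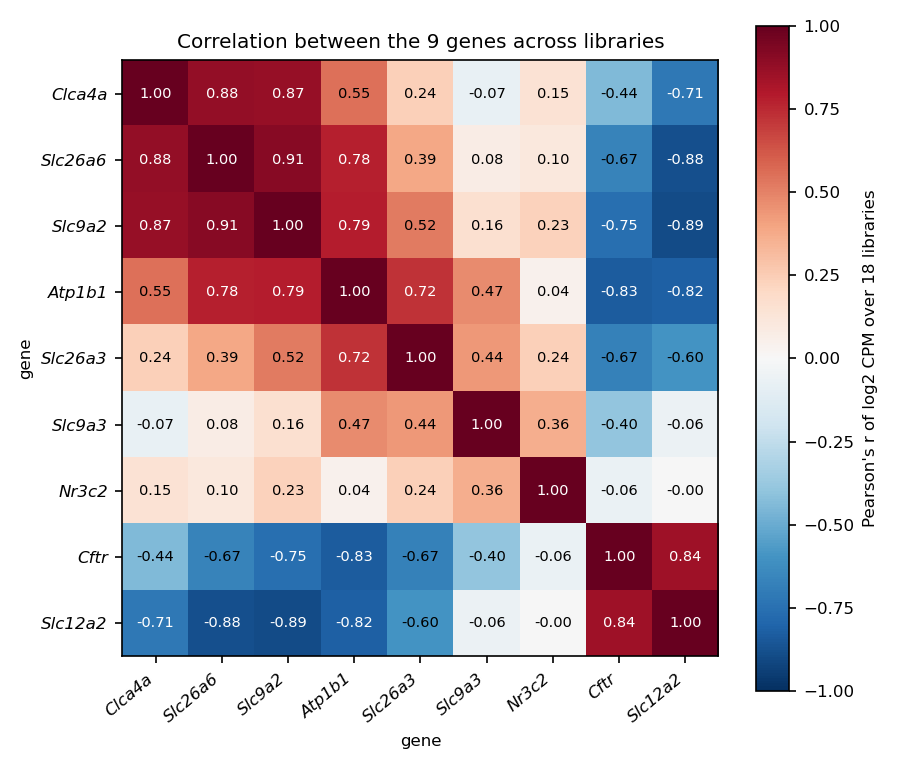
Pearson's r of log2 CPM between each pair of the 9 genes over 18 libraries, as a colour scale. Slc9a2, Slc26a6 and Clca4a form a positive block (0.872 to 0.912), Cftr and Slc12a2 another (0.844), with negative values between the blocks and weak values for Nr3c2.

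For each gene, the 3 genes with the most similar pattern over the 18 libraries were found among 9279 genes that averaged at least 5 CPM and had a full gene symbol. Slc26a6 was closest to Pdlim2 (r = 0.98), Slc7a9 (0.977), the light chain of the brush border cystine transporter, and Ggt1 (0.971), the brush border enzyme gamma-glutamyltransferase. Atp1b1 was closest to Slc5a1 (0.95), the sodium-glucose cotransporter SGLT1, then Parp9 (0.95) and Bak1 (0.942). Slc9a2 was closest to D1Ertd622e (0.973), Arhgef16 (0.97) and Itpk1 (0.966), and Clca4a to Stk25 (0.966), Ceacam18 (0.964) and Prkx (0.962).

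Slc12a2 was closest to the cohesin factor Pds5b (r = 0.981), the receptor Notch1 (0.979) and the kinase Limk2 (0.979). Cftr was closest to Uaca (0.923), the glycogen phosphorylase Pygb (0.909) and the growth factor Bmp3 (0.907), with within-group values as low as 0.452 for Bmp3. Nr3c2 was closest to Zzef1 (0.925), Csnk1g1 (0.924) and Fmn1 (0.923). Slc26a3 was closest to Inpp1 (0.89), Ankmy2 (0.89) and Psmf1 (0.868). Slc9a3 was closest to Ube3b (0.917), Zdhhc3 (0.87) and Dnajc16 (0.821), and the last of these fell to -0.02 in 1 group. Each r is over 18 libraries that share the crypt-to-villus difference, and is given with no test.

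The other genes of these pathways, 88 in 8 lists, were counted in the same fits, and 64 of them passed the filter on low counts. In lactating against virgin females 0 of the 64 were called by edgeR, beside 0.0578% of all genes, and 7 had an unadjusted p under 0.05, beside 6.44% of all genes. DESeq2 called 1 of them and limma voom 0, where they called 57 and 2 over all genes. In virgin males against virgin females 0 of the 64 were called by edgeR (0.0835% of all genes) and 14 had an unadjusted p under 0.05 (8.32% of all genes). DESeq2 and limma voom called 0 of them there, where they called 44 and 20 over all genes. In lactating females against virgin males 1 of the 64 was called (0.764% of all genes), the carbonic anhydrase Car12, and 17 had an unadjusted p under 0.05 (15.9% of all genes). DESeq2 called 4 and limma voom 3 of the 64 in that comparison, where they called 415 and 217 over all genes.

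Car12, a membrane-bound carbonic anhydrase of basolateral membranes that turns carbon dioxide into bicarbonate, averaged 42.7 ± 12.2 CPM in lactating females (25.0 to 55.5), against 24.4 ± 3.33 CPM in virgin males (20.2 to 28.8; SD, n = 6 each). It rose by 0.81 on the log2 scale (SE 0.18, adjusted p = 0.0458), though 1 lactating library lay inside the male range. The call lies at the threshold: it was lost in 15 of 27 alternatives, including leaving out any of 11 single libraries, where the value ran from 0.72 to 0.86. In virgin males, at 24.4 ± 3.33 CPM, against virgin females, at 34.3 ± 8.04 CPM, the log2 fold change was -0.49 (SE 0.18, adjusted p = 0.565). In lactating females against virgin males, 1 of 7 tested carbonic anhydrases was called, beside 0.764% of all genes, with a list median log2 fold change of 0.21. In lactating against virgin females the list median was -0.04 with 0 called. Car13, a cytosolic carbonic anhydrase, averaged 69.2 ± 8.04 CPM in lactating females there, against 97.7 ± 24.3 CPM in virgin females (-0.50, SE 0.14, adjusted p = 0.396), and Car12 had 0.32 (SE 0.18, adjusted p = 0.846). Virgin males averaged 78.25 ± 12.5 CPM of Car13, with -0.32 against virgin females (SE 0.14, adjusted p = 0.565 by edgeR).

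Vipr1, the receptor for vasoactive intestinal peptide, the neural signal that opens CFTR through cyclic AMP, averaged 168 ± 18.7 CPM in lactating females (141 to 193), against 228 ± 6.80 CPM in virgin females (219 to 238; SD, n = 6 each), and these ranges lay apart, as did those of 0.289% of all genes. Its log2 fold change was -0.44 (SE 0.09, 95% interval -0.62 to -0.26, adjusted p = 0.0657 by edgeR), which missed the threshold, while DESeq2 gave an adjusted p of 0.000126 and limma voom one of 0.193. It was called in 3 of 27 alternatives. Lactating females had -0.35 against virgin males, which averaged 214 ± 17.1 CPM (SE 0.09, adjusted p = 0.0726 by edgeR, 0.00398 by DESeq2 and 0.0473 by limma voom). The lactating maximum of 192.6 CPM lay just below the male minimum of 193.9 CPM, and 1.34% of all genes had ranges apart there. Vipr1 had a slope of 0.06 (SE 0.07) on the cell cycle score, and its log2 fold change against virgin females was -0.45 with the score as a covariate (adjusted p = 0.0134).

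Of the 11 tested sodium-proton exchangers and scaffold genes, 0 were called in any comparison, with medians of -0.03 for lactating against virgin females, -0.29 for males against virgin females and 0.32 for lactating females against males. Ezr, which links the brush border to actin and anchors NHE3 complexes, averaged 1490.0 ± 426 CPM in lactating females, against 923 ± 166 CPM in virgin males (log2 fold change 0.69, SE 0.22, adjusted p = 0.171). The NHE3 scaffold Slc9a3r1 averaged 1055 ± 321 CPM in lactating females, against 715 ± 162 CPM in virgin males (0.56, SE 0.25, adjusted p = 0.288). Virgin females averaged 1384 ± 463 CPM of Ezr and 1075 ± 413 CPM of Slc9a3r1. Against them lactating females had 0.11 and -0.03, and males -0.58 and -0.59. On the cell cycle score, 6 of the 11 had called negative slopes and 1 a positive one, where 22.1% of all genes were called negative and 22% positive. Among the 6 were Pdzk1 at -0.97, Slc9a3r1 at -0.86 and Ezr at -0.72. Slc9a3, whose product these scaffolds bind, had a slope of 0.11 in the same fit.

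The channels and receptors of secretion had 0 of 14 tested members called by edgeR in each comparison, with medians of -0.11, -0.04 and -0.30 in the same order. On the score, 6 of the 14 had called positive and 4 called negative slopes, where 22% of all genes were called positive and 22.1% negative. The basolateral potassium channels Kcnn4 and Kcnq1, which keep chloride leaving the cell, had slopes of 1.07 (SE 0.10, adjusted p = 2.52e-07) and 0.82 (SE 0.09, adjusted p = 2.52e-06). The chloride channel Clcn2 had -0.51 (SE 0.08, adjusted p = 8.16e-05), and the potassium channel Kcnk5, named after its value was seen, had -0.44 (SE 0.10, adjusted p = 0.00163). Kcnn4 averaged 19.7 ± 7.32 CPM in lactating females, against 32.6 ± 5.29 CPM in virgin males (log2 fold change -0.72, SE 0.28, adjusted p = 0.238). Kcnq1 averaged 51.0 ± 16.2 CPM in lactating females, against 79.1 ± 9.43 CPM in virgin males (-0.63, SE 0.23, adjusted p = 0.221). Virgin females averaged 20.8 ± 9.18 CPM of Kcnn4 and 62.9 ± 26.0 CPM of Kcnq1. Against them lactating females had -0.08 and -0.30, and males 0.64 and 0.33. Clca4b, the close copy of Clca4a, averaged 2550.0 ± 1246 CPM in lactating females, 1318 ± 363 CPM in virgin males and 2504 ± 964 CPM in virgin females. It had a log2 fold change of 0.95 (SE 0.31, adjusted p = 0.174) in lactating females against males and a slope of -0.99 (SE 0.15). Ano1, a calcium-activated chloride channel, was low, at 3.55 ± 1.61 CPM in lactating females, against 6.36 ± 2.70 CPM in virgin females (-0.84, SE 0.32, adjusted p = 0.635).

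In the aldosterone list 0 of 9 tested members were called by edgeR in each comparison, with medians of -0.03, -0.13 and 0.18. In lactating against virgin females 4 of the 9 had positive and 5 negative values. The glucocorticoid receptor gene Nr3c1 averaged 165 ± 18.7 CPM in lactating females, against 194.0 ± 27.6 CPM in virgin females (log2 fold change -0.24, SE 0.11, adjusted p = 0.732). Tsc22d3, a glucocorticoid-induced gene, averaged 74.8 ± 19.9 CPM in lactating females, against 76.1 ± 13.0 CPM in virgin females (-0.03, SE 0.17, adjusted p = 0.993). Fkbp5, a classical target of corticosteroid receptors, averaged 27.0 ± 6.74 CPM in lactating females, 14.6 ± 4.30 CPM in virgin males and 16.0 ± 5.71 CPM in virgin females. Its log2 fold change was 0.88 against males (SE 0.24, adjusted p = 0.097 by edgeR, 0.0153 by DESeq2 and 0.0297 by limma voom) and 0.76 against virgin females (SE 0.24, adjusted p = 0.482 by edgeR). Sgk1, the aldosterone-induced kinase that raises sodium transport, averaged 229 ± 141 CPM in lactating females, against 118 ± 35.5 CPM in virgin males (0.95, SE 0.36, adjusted p = 0.23). In virgin females Sgk1 averaged 212 ± 76.8 CPM, so the male group was the low one. Its log2 fold change was 0.11 in lactating against virgin females (SE 0.35, adjusted p = 0.985 by edgeR). In males against virgin females it was -0.84 (SE 0.36, adjusted p = 0.565 by edgeR). Sgk2 averaged 43.6 ± 21.5 CPM in lactating females, against 17.3 ± 7.05 CPM in virgin males (1.33, SE 0.37, adjusted p = 0.116 by edgeR and 0.0171 by DESeq2). In virgin females Sgk2 averaged 28.4 ± 14.0 CPM. Against them lactating females had 0.62 (SE 0.37) and males -0.72 (SE 0.37). Both kinases had negative slopes on the score, -1.04 (SE 0.23) and -1.39 (SE 0.15) (adjusted p = 0.00123 and 1.62e-06). Hsd11b2, which protects the mineralocorticoid receptor from glucocorticoids, averaged 17.6 ± 3.87 CPM in lactating females, against 13.2 ± 2.56 CPM in virgin females (0.42, SE 0.15, adjusted p = 0.596).

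The smaller lists also had 0 members called by edgeR. Of the list of sodium pump and FXYD subunits, 3 of 11 genes passed the filter. The bicarbonate transporter list (8 tested) had medians of 0.04, -0.13 and 0.19. Its sulphate and anion exchanger Slc26a2 averaged 376 ± 83.0 CPM in lactating females, against 253 ± 18.2 CPM in virgin males (log2 fold change 0.57, SE 0.19, adjusted p = 0.188). Virgin females averaged 347.3 ± 127.5 CPM, and against them lactating females had 0.12 and males -0.46. Slc26a2 had a slope of -0.49 on the cell cycle score (SE 0.13, adjusted p = 0.00648 by edgeR). The guanylate cyclase C list, whose peptides slow salt uptake, had 7 of 7 tested members with negative values in males against virgin females and a median of -0.22, none called. Negative values were common in that comparison, at 48 of the 64 genes of all 8 lists. The aquaporins (5 tested) included Aqp3, at 28.2 ± 21.3 CPM in lactating females, against 11.8 ± 5.41 CPM in virgin males (1.26, SE 0.45, adjusted p = 0.215), and Aqp1, at 152 ± 67.3 CPM in lactating females, against 270.1 ± 124 CPM in virgin females (-0.83, SE 0.30, adjusted p = 0.587). Aqp3 averaged 27.3 ± 14.6 CPM in virgin females, and lactating females had 0.04 against them. Aqp1 averaged 168 ± 40.4 CPM in virgin males, which had -0.69 against virgin females. Lactating females had -0.14 against males for Aqp1. On the score, 4 of the 5 had called negative slopes and 1 a positive one, where 22.1% of all genes were called negative and 22% positive. Aqp3 had a slope of -1.42 (SE 0.23) and Aqp1 one of -0.62 (SE 0.24).

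**Figure D5:**
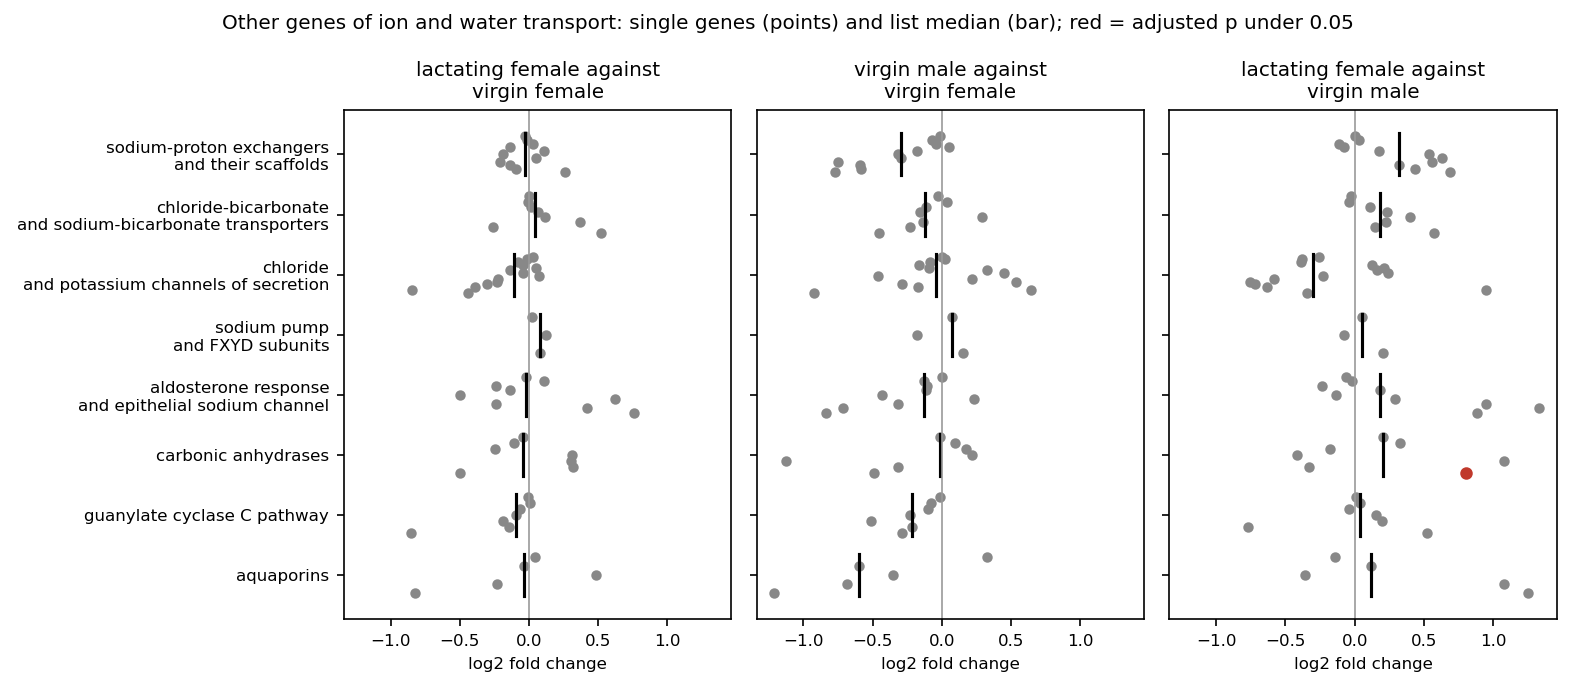
Log2 fold change of the other ion and water transport genes (points) and the median of each of 8 lists (bars) in the 3 comparisons, with genes at an adjusted p under 0.05 in red. Only Car12, at 0.81 in lactating females against virgin males, is red.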

How the data were processed

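Bulk poly(A) RNA of sorted ileal epithelium was sequenced in 18 libraries, and the authors deposited 1 table of raw whole-number counts per gene for each. The submitters' processing notes list FastQC 0.11.5, HISAT2 2.0.4, featureCounts of Subread 2.0.0 and DESeq2 1.24.0 with GRCm38. The annotation release, strand setting and treatment of multi-mapped reads are not given in the sources used here, so counts of overlapping genes and close copies are uncertain. Symbols, coordinates and exon lengths came from GENCODE M21, which held 47310 of the 47729 identifiers, and 0 rows named no gene. A count of 3, taken as the floor, equals 0.0612 to 0.0868 CPM, and covers counting error only, as reads carry no molecular identifiers. None of the 153 pairs of libraries agreed within sampling noise (lowest chi-square per degree of freedom 32.7), so 18 samples were counted.

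Genes were filtered with filterByExpr and scaled with TMM in edgeR 4.0.16 (R 4.3.3). A single quasi-likelihood fit took all 18 libraries and 15572 genes, with a term per group and Benjamini-Hochberg adjustment over them. The standard error is the absolute log2 fold change over the square root of F. Slopes came from the same model with the cell cycle score added. Correlations used log2 CPM (prior count 2) and two-sided tests with 100000 permutations, adjusted over the 9 genes or the 36 pairs, with the adjustment over all genes beside the first. DESeq2 1.42.0, limma 3.58.1 and other settings were alternatives, and the fits were tested on simulated data. The genes and lists were chosen with earlier results of these data known. The genes to name were the 9 members, up to 4 genes per list and comparison by smallest p, and the 3 closest patterns per member. The fold changes of individual genes were recomputed under each alternative only for members and for list genes with p under 0.05. That recomputation for list genes, the slopes and the checks on them, and the shares of all genes with separate ranges or a called correlation were chosen after seeing the data. The results of 2 genes of the lists, and the colon marker list, are not reported here. Samples were grouped by their labels, and no batch is given.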

Additional observations from a re-analysis of the deposited data

Results flagged for a closer look

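Of the 27 sets of 6 libraries (9 genes in 3 groups), 3 held a library whose gap to its neighbour was a large part of the group's range (Dixon's test at 95%). Chance flags about 1 in 20 groups. Of the 3, 2 came from virgin female 1, which had the lowest cell cycle score of its group. Slc26a3 stood at 276.4 CPM in that library, and the next highest virgin female library was at 213.4 CPM, a gap of 0.661 of the range. Cftr stood at 54.68 CPM in the same library, and the next lowest was at 110.7 CPM, a gap of 0.658 of the range. Nr3c2 stood at 34.94 CPM in virgin male 4, and the next lowest male library was at 40.75 CPM, a gap of 0.649 of the range. That library had the highest cell cycle score of the males. The part of the cell cycle score in these 3 values was not tested.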

How the results depend on the processing

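The number of the 9 genes called stayed at 0 in all 3 comparisons under all 27 alternatives. Over all genes the counts moved. For lactating against virgin females the count was 9, against 57 with DESeq2, 15 with a filter of at least 1 CPM in 6 libraries, 61 with the cell cycle score as a covariate, 2 with limma voom, and 1 with the 2 groups alone, with a replicate block, or without virgin female 2 and virgin male 6. Leaving out single libraries gave 2 to 16. For males against virgin females it was 13, against 44 with DESeq2, 20 without a low-count filter and 20 with limma voom. Leaving out single libraries gave 10 to 18. For lactating females against males it was 119, against 415 with DESeq2, 217 with limma voom and 61 without virgin female 2 and virgin male 6. Leaving out single libraries gave 62 to 311. The labels do not say whether a replicate number marks libraries that belong together. Deviations of same-numbered libraries from their group means correlated from -0.063 to 0.219, -0.219 to 0.477 and -0.174 to 0.321 in the 3 comparisons. In the same order, 0, 2 and 2 of 6 libraries correlated best with their own number. These values cannot exclude a pairing, since the deviations also hold the spread in cell cycle score within groups. With the replicate block, 11 and 114 genes were called in the last 2 comparisons, and the block moved 0 of the 9 genes past the threshold.

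The following log2 fold changes of the 9 genes turned their sign, each with an adjusted p over 0.05 in both settings. Lactating against virgin females, Slc12a2 became 0.0086 with limma voom and Atp1b1 -0.0213 without virgin female 2 and virgin male 6. Males against virgin females, the score covariate gave 0.0029 for Slc9a2, -0.0654 for Slc12a2 and 0.22 for Clca4a, and Nr3c2 became 0.004 without virgin female 2 and virgin male 6. Lactating females against males, the covariate gave -0.03 for Slc26a3 and 0.003 for Cftr, and Slc26a3 became -0.0275 without virgin female 2 and virgin male 6. Leaving out single libraries gave, for lactating against virgin females, -0.0423 to 0.1644 for Slc9a2, -0.0062 to 0.2285 for Cftr, -0.4946 to 0.0376 for Slc12a2 and -0.0513 to 0.0966 for Atp1b1. For males against virgin females it gave -0.1834 to 0.01 for Nr3c2, and for lactating females against males -0.4156 to 0.0931 for Slc9a3 and -0.028 to 0.0608 for Slc26a3. The r of Slc9a3 was 0.00785 with a stem cell score, 0.095 with a villus tip score of turned sign, 0.0667 without virgin female 2 and virgin male 6 and 0.0314 for deviations from group means. Its slope was -0.0688 with the stem cell score and ran from -0.1601 to 0.2592 without single libraries. Among other pathway genes, Car12 was called in 12 of 27 alternatives, and Vipr1 in 3 of 27 for lactating against virgin females. The number of called slopes among the 9 genes ran from 4 to 7, and that of called correlations from 4 to 6. The cause of these shifts was not tested.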
